A study of Homo sapiens with 8 samples.

Results

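The genes described here are 10 human imprinted genes, chosen by symbol from the 60664 genes of the expression table: H19, IGF2, MEG3, DLK1, PEG3, PEG10, SNRPN, MEST, PLAGL1 and KCNQ1OT1. All 10 were found, and all 8 RNA-seq libraries were used. The cells were THP-1, a human acute monocytic leukemia line, in its parental form and in a derivative made resistant to decitabine (DAC) by repeated exposure to the drug. Each line was given DMSO, the solvent, or 1 µM DAC over 6 days, and there were 2 biological replicates in each of the 4 groups. The labels list the genotype of these cells as WT. DAC is a cytidine analogue that is built into DNA and traps DNA methyltransferases, so that methylation is lost as cells divide. The DAC-resistant cells are 1 derivative of 1 line, so a difference between the lines cannot be told apart from other changes picked up during selection. The labels do not say whether the replicates were separate cultures from the start, and the p-values measure only the spread between these samples.

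Imprinted genes are expressed mainly from the copy inherited from 1 parent. Methylation laid down in the germ line at imprinting control regions marks the silent or the active copy. In somatic cells DNMT1 and UHRF1 copy that mark at each division. ZFP57 with TRIM28 can protect the mark, and ZFP57 had 0 reads here outside the parental DAC libraries. Many of these genes steer fetal growth, and several lie in clusters in which a long noncoding RNA from 1 copy keeps neighbouring genes silent on the same chromosome. H19 and IGF2 lie on chromosome 11 beside a second cluster that holds KCNQ1OT1, MEG3 and DLK1 lie together on chromosome 14, and PEG10 and MEST lie on chromosome 7. PEG3 lies on chromosome 19, SNRPN on chromosome 15 and PLAGL1 on chromosome 6. The values give the RNA of both copies together, so they do not show which copy was read, and methylation was not measured here.

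Promoter sequence is shown for 4 of these genes because DNA methylation falls mainly on CG dinucleotides. The 4 promoters run from few CG to many. Promoter windows of 300 bases, from 250 before to 50 after a transcript start, were taken from RefSeq on GRCh38.p14. They were matched for 5 of the 10 genes, H19, MEG3, MEST, PLAGL1 and SNRPN, with 18 start sites in all, and the window richest in CG was kept for each gene. DLK1, IGF2, KCNQ1OT1, PEG3 and PEG10 had no entry in the set of windows used here. Capitals mark each CG, and each sequence runs 5′ to 3′ on the strand of the gene.
H19, chr11:2001217-2001516, minus strand: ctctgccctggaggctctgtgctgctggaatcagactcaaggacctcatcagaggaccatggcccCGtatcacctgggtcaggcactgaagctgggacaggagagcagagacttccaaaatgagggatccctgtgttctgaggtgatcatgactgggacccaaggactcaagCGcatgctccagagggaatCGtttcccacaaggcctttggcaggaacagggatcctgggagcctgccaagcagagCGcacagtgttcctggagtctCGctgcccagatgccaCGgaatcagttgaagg
MEG3, chr14:100825858-100826157, plus strand: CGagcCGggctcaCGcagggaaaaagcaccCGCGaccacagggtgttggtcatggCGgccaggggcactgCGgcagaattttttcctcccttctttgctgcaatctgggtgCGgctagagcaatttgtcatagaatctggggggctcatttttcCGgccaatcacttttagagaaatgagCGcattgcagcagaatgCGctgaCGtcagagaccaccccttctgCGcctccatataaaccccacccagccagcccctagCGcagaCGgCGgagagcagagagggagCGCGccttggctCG
SNRPN, chr15:24954737-24955036, plus strand: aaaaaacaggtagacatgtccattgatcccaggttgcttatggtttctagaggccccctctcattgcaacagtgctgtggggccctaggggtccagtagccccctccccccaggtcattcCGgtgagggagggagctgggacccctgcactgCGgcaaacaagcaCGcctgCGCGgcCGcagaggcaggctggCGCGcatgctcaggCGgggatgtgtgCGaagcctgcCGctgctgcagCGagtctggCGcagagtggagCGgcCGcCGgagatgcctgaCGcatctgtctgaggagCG
MEST, chr7:130491835-130492134, plus strand: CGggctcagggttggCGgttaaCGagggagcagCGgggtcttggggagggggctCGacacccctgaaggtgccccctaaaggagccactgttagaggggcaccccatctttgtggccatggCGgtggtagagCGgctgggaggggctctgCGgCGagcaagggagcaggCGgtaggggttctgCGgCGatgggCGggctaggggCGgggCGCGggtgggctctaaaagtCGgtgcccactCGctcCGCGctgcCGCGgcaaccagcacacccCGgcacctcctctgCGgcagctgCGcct

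The H19 window held 6 CG, fewer than the median of 14 over all 34943 promoter windows, and 66.2% of windows held at least as many. The windows of SNRPN and MEG3 held 18 and 19 CG, and that of MEST held 25, a number that 31.9% of windows reached. The PLAGL1 window at chr6:144008210-144008509 on the minus strand held 39 CG, the most among the 5 genes, and 8.71% of windows held at least as many. The letters TGCCGC, which ZFP57 reads when methylated, were searched on both strands. They occurred 0 times in the H19 window, 1 time in MEG3, 2 times each in SNRPN and PLAGL1 and 3 times in MEST, and 16.7% of all windows held them at least once. Such a match describes the letters only.

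Levels are in FPKM, reads scaled by gene length and library total. The library totals behind the scaling ran from 27480502 to 31916835 reads, lowest in the parental DAC libraries. For genes of low level, the whole reads behind the FPKM values were recovered from the steps between them. Markers fixed for monocytic leukemia summed to 337 to 349 FPKM in DMSO-treated parental cells, 420 to 430 with DAC, and 232 to 242 over the 4 DAC-resistant libraries, with none of the 10 markers at 0. SPI1 and CD4 carried most of this sum, and single markers moved more. With DAC in the parental line 4 of the 10 were called higher in limma, CD14, LYZ, CD36 and MPO, where 6.66% of all genes were, and CD14 went from 1.45 and 1.58 to 19 and 20.8 FPKM. Between the lines 3 were called lower with DMSO and 6 with DAC, where 4.28% and 9.17% of all genes were. The sum of 4 T cell markers was at most 0.559 FPKM in any library and that of 3 epithelial markers at most 0.148. The sum of 5 B and plasma cell markers ran from 5.35 to 8.56 FPKM and that of 4 erythroid markers from 0 to 3.08. A list of 6 fibroblast and endothelial markers moved with the groups, from 0.758 to 0.885 FPKM in parental DMSO libraries to 12.9 to 13.4 with DAC, and lay at 7.14 to 7.22 in DMSO-treated resistant cells and 5.45 to 5.73 with DAC. COL1A1 and PDGFRB made up most of it, while CDH5 was at 0 in both parental DMSO libraries and in all DAC-resistant libraries. The part of these markers in the results below was not tested. In such bulk samples, fewer expressing cells and less RNA per cell cannot be told apart.

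Of the 10 genes, 3 were expressed at over 1 FPKM in every library: SNRPN, PLAGL1 and MEST. None of them passed the call rule in any comparison, which asked for an unadjusted p no higher than 0.01 together with a log2 fold change of 1 or more in either direction, in limma on log2(FPKM + 1). Of the 14899 genes so tested, 8.73% were called between the lines with DMSO. PEG10 reached 1 FPKM only in the DAC-resistant libraries, and the remaining 6 genes stayed below it in all 8.

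**Figure D1:**
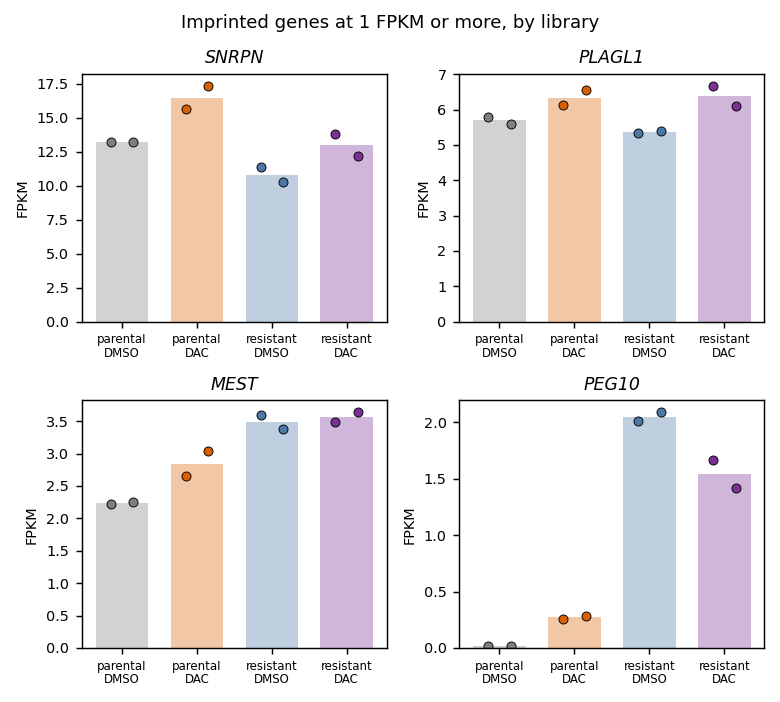
FPKM of SNRPN, PLAGL1, MEST and PEG10 in each library (points) with the group mean (bars, from 0), for parental and DAC-resistant cells with DMSO or DAC. SNRPN, PLAGL1 and MEST were expressed in every group, while PEG10 stood at 0.0141 and 0.0148 FPKM in DMSO-treated parental cells and at 2.01 and 2.09 in DMSO-treated resistant cells.

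SNRPN, which encodes a protein of the spliceosome's Sm family and lies in the Prader-Willi region, had the highest level of the 10. Its values were 13.2 and 13.2 FPKM in DMSO-treated parental cells and 15.6 and 17.4 with DAC. In DAC-resistant cells they were 11.4 and 10.2 with DMSO and 13.8 and 12.2 with DAC. SNRPN was thus somewhat higher with DAC in both lines, and lower in DAC-resistant cells than in parental cells under either treatment, with no overlap of the groups. Groups that do not overlap are common with 2 libraries each: of 21382 genes, 45% lay higher and 29.8% lower with DAC in the parental line, 26.5% and 23.2% in the resistant line, 36% and 37.2% between the lines with DMSO, and 33.1% and 46.5% with DAC. The log2 change with DAC was 0.30 ± 0.08 (SE) in parental cells, at an adjusted p of 0.0157, and 0.25 ± 0.08 in DAC-resistant cells, at an adjusted p of 0.0988. The difference between these changes was -0.05 ± 0.11, with an adjusted p of 0.729, and its sign turned under another scaling. SNRPN shares 43.9% of its exon bases with SNURF, SNHG14 and other transcripts on its own strand, so its reads cannot be fully separated from theirs.

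PLAGL1, a zinc-finger transcription factor that restrains the cell cycle, differed little between the groups. Its level was 5.79 and 5.60 FPKM in DMSO-treated parental cells, 6.12 and 6.54 with DAC, 5.33 and 5.40 in DMSO-treated resistant cells and 6.67 and 6.09 with DAC. The DAC groups lay above their DMSO groups in both lines. The log2 change was 0.13 ± 0.06, with a 95% interval of -0.01 to 0.27, in parental cells and 0.21 ± 0.06, from 0.07 to 0.35, in the resistant line. The difference between the lines was -0.07 ± 0.06 with DMSO and 0.01 ± 0.06 with DAC.

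MEST, an enzyme of the alpha/beta hydrolase fold family, had higher values in the DAC-resistant line, without a call. It stood at 2.22 and 2.26 FPKM in DMSO-treated parental cells and 2.65 and 3.03 with DAC, and at 3.59 and 3.38 in DMSO-treated resistant cells and 3.49 and 3.64 with DAC. With DMSO the log2 difference between lines was 0.47 ± 0.07 with an adjusted p of 0.00145, below the fold that a call needs. DAC gave 0.24 ± 0.07 in parental cells and 0.03 ± 0.07 in the resistant line, where the groups overlapped, and the difference of -0.22 ± 0.10 had an adjusted p of 0.116. On the opposite strand, MESTIT1, COPG2 and another transcript share 27.6% of the exon bases of MEST, and whether the counting used the strand is not given in the sources used here.

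**Figure D2:**
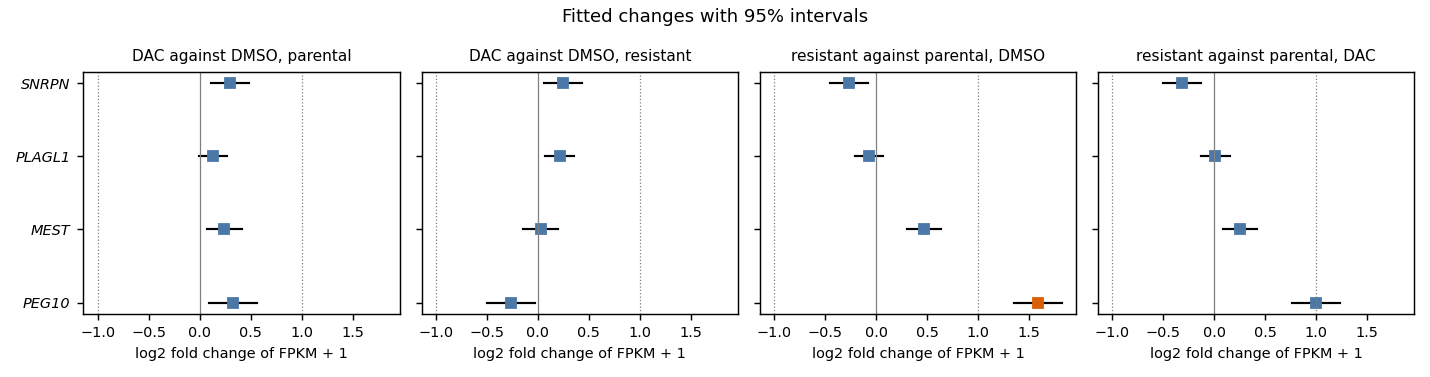
Log2 fold changes of FPKM + 1 from limma (squares) with 95% intervals (lines) for SNRPN, PLAGL1, MEST and PEG10 in 4 comparisons, the call in orange and dotted lines at a log2 fold change of 1 in size. PEG10 in DAC-resistant against parental cells with DMSO was the call, at 1.59, and the intervals of the other 3 genes stayed within a log2 change of 1.

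PEG10, a gene derived from a retrotransposon whose Gag-like protein forms capsids and which is needed for the placenta, differed more between the lines than SNRPN, PLAGL1 and MEST did. Its level was 0.0141 and 0.0148 FPKM in DMSO-treated parental cells, from 3 reads in each library. With DAC it was 0.261 and 0.283 FPKM, from 48 and 52 reads. In DAC-resistant cells it was 2.01 and 2.09 FPKM with DMSO and 1.67 and 1.42 with DAC, from 424, 420, 356 and 290 reads. PEG10 was therefore lowest in untreated parental cells, intermediate after DAC and highest in the DAC-resistant line, where the values with DAC were below those with DMSO, and no groups overlapped.

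In DAC-resistant against parental cells with DMSO, PEG10 was called higher, with a log2 change of 1.59 ± 0.10 on the FPKM + 1 scale and an adjusted p of 2.49e-05. It was 1 of the 4 imprinted genes that could be tested on that scale, where 4.45% of 14899 genes were called higher, and it passed the filter on low values only through the DAC-resistant libraries. The ratio of scaled reads was 142-fold, with a 95% counting interval of 64.8 to 387, which covers counting error only. With DAC the DAC-resistant cells had a ratio of 5.68 (4.59 to 7.08), and on the FPKM + 1 scale the log2 change of 1.00 ± 0.10 lay just under the fold needed for a call, so this call varied with the scaling. There, 5.29% of genes were called higher and 9.17% lower, and 0 of the 4 imprinted genes, 3 with an unadjusted p under 0.05. The share of all genes with such a p was not counted. The difference between the DAC effects was called for 0 of the 4, where 3.46% of genes were called higher and 7.16% lower in the DAC-resistant line.

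In parental cells DAC raised the scaled PEG10 reads 18.8-fold (8.34 to 52.5), while in DAC-resistant cells the ratio was 0.754 (0.680 to 0.837). On the FPKM + 1 scale, which understates changes of low genes, these were log2 changes of 0.33 ± 0.10 and -0.26 ± 0.10, with adjusted p-values of 0.026 and 0.142. Neither was a call. In each line 0 of the 4 imprinted genes were called, where 9.31% of genes were called in the parental line and 0.235% in the resistant one. Of the 4, 3 had an unadjusted p under 0.05 in each line, and the share of all genes with such a p was not counted. With quantile normalization the parental value was -0.01.

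The imprinted genes under 1 FPKM were tested on recovered reads with limma's voom, for genes with at least 10 reads in at least 2 libraries and with the same thresholds. This reads fit was added after the values were seen. It took in 9 of the 10 genes, all but IGF2, and H19 and PEG3 entered it only through the parental DAC libraries. H19, MEG3, DLK1, PEG3, PEG10 and KCNQ1OT1 were called higher with DAC in parental cells, and 0 were called lower, where 14.2% of the 21382 genes tested were called higher and 4.17% lower. In DAC-resistant cells 0 of the 9 were called, where 0.337% of genes were called higher and 0.192% lower, 0.528% in all. Among the 9, 4 had an unadjusted p under 0.05. These were PEG10 and KCNQ1OT1, which were lower with DAC, and SNRPN and PLAGL1, which were higher. How many of all genes had such a p was not counted.

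**Figure D3:**
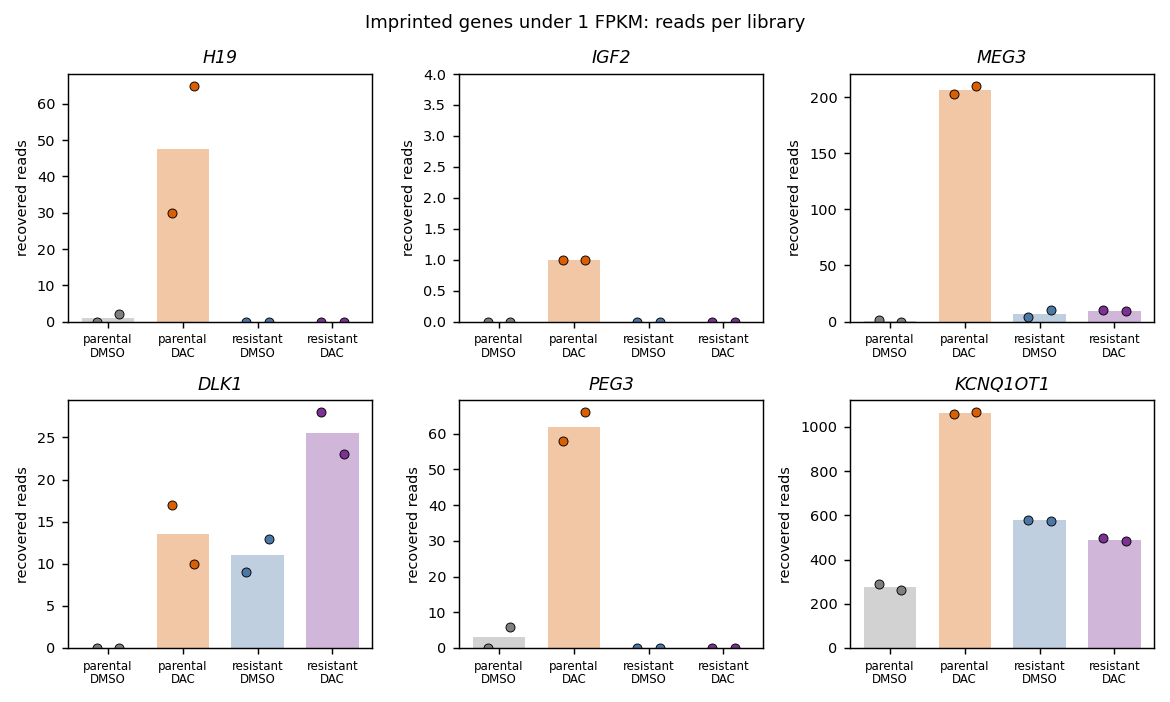
Recovered reads per library (points) and group means (bars, from 0) of the 6 imprinted genes that stayed under 1 FPKM; each panel has its own axis. H19, PEG3 and MEG3 had most of their reads in the parental DAC libraries, DLK1 had its highest values in DAC-treated resistant cells, and KCNQ1OT1 had reads in every library.

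Among the long noncoding RNAs, H19, which also carries the precursor of miR-675, had 0 and 2 reads in DMSO-treated parental cells and 30 and 65 with DAC. This corresponded to 0 and 0.0228 FPKM and to 0.377 and 0.817 FPKM. H19 had 0 reads in all 4 DAC-resistant libraries, which allows a level of up to 0.0168 FPKM with DMSO and 0.0166 with DAC. The ratio of scaled reads with DAC in parental cells was 53.6 (14.4 to 449), with an adjusted p of 0.00064 in the reads fit. With DAC, H19 was at least 36.0-fold lower in DAC-resistant than in parental cells (adjusted p = 9.16e-05), a bound set against 3 reads over the group. The test of the difference between the DAC effects gave an unadjusted p of 0.0119 and an adjusted p of 0.0314, short of a call.

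MEG3, an RNA expressed from the maternal copy that can act as a growth suppressor, had 1 and 0 reads in DMSO-treated parental cells and 203 and 210 with DAC, or 0.318 and 0.329 FPKM. In DAC-resistant cells it had 4 and 10 reads with DMSO and 10 and 9 with DAC. The parental DAC libraries stood apart from the other 6. The ratio with DAC in parental cells was 466, with a counting interval of 83.2 to 18450 because the control rests on 1 read, and the adjusted p was 3.73e-06. In DAC-resistant cells the ratio was 1.34 (0.636 to 2.88), the groups overlapped and the adjusted p was 0.761. The DAC effects differed between the lines (adjusted p = 0.000125).

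KCNQ1OT1, the RNA that is read antisense to KCNQ1 and keeps neighbouring genes silent on its own chromosome copy, was the best covered of the genes under 1 FPKM. It had 287 and 263 reads in DMSO-treated parental cells and 1060 and 1066 with DAC, against 580 and 574 in DMSO-treated resistant cells and 496 and 484 with DAC. The levels were 0.0987 and 0.0946, 0.421 and 0.423, 0.200 and 0.208, and 0.170 and 0.172 FPKM in that order. All 4 groups were separate, with the parental DMSO libraries lowest and the parental DAC libraries highest. DAC gave a log2 change of 2.12 ± 0.11 in parental cells (adjusted p = 5.74e-11) and -0.26 ± 0.10 in DAC-resistant cells (adjusted p = 0.123). The difference between these effects was -2.38 ± 0.15, with an adjusted p of 1.16e-09. Its exons span 92625 bases and share 1.21% of them with genes on the opposite strand, KCNQ1 included.

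PEG3, a zinc-finger protein expressed from the paternal copy, followed a pattern similar to H19. It had 0 and 6 reads in DMSO-treated parental cells, 58 and 66 with DAC, or 0.216 and 0.246 FPKM, and 0 in all 4 DAC-resistant libraries, which allows up to 0.00498 FPKM with DMSO and 0.00491 with DAC. The ratio with DAC in parental cells was 23.3 (10.4 to 64.8), with an adjusted p of 0.000212. With DAC, PEG3 was at least 47.0-fold lower in DAC-resistant than in parental cells (adjusted p = 3.11e-05). ZIM2 and a transcript on the opposite strand share 50.9% of the exon bases of PEG3. ZIM2 itself had 1 read, in a parental DAC library.

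DLK1, a membrane protein related to Notch ligands that holds back differentiation, differed from its neighbour MEG3. It had 0 reads in both parental DMSO libraries and 17 and 10 with DAC. In DAC-resistant cells it had 9 and 13 reads with DMSO and 28 and 23 with DAC. DLK1 was thus detected in every group but the untreated parental one, and its highest values were in DAC-treated resistant cells. Against parental cells with DMSO it was at least 10.2-fold higher in parental cells with DAC (adjusted p = 0.000939) and at least 7.38-fold higher in DMSO-treated resistant cells (adjusted p = 0.00224). The second call was lost without either parental DMSO library, at an unadjusted p of 0.0113 without replicate 1 and 0.0108 without replicate 2. In DAC-resistant cells the ratio with DAC was 2.28 (1.36 to 3.96), and the unadjusted p of 0.0555 (adjusted 0.234) missed the threshold.

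IGF2, the fetal growth factor that shares an enhancer region with H19, was next to undetected. It had 1 read in each parental DAC library, 0.00581 FPKM, and 0 in the other 6. The 0 reads of the parental DMSO group allow up to 0.00773 FPKM, so a difference was not detectable at this depth.

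In DAC-resistant against parental cells with DMSO, the reads fit called PEG10, DLK1 and KCNQ1OT1 higher, 3 of the 9 tested and 0 lower. Over all genes 7.77% were called higher and 9.89% lower. KCNQ1OT1 was 2.11-fold higher (1.91 to 2.34), a log2 change of 1.08 ± 0.12 with an adjusted p of 9.62e-07, and with upper-quartile scaling it was 1.00, at the limit of a call. MEG3 was higher in both DAC-resistant libraries, at a ratio of 14.1 with an interval of 2.14 to 596, and missed the call with an unadjusted p of 0.0198. With DAC in both lines, PEG10 alone was called higher, where 7.58% of genes were, and H19, MEG3, PEG3 and KCNQ1OT1 were called lower, where 18.7% were. H19 and PEG3 passed the filter on reads only through the parental DAC libraries, where they were high. Their calls in comparisons that use those libraries therefore describe the values only. The ratio for MEG3 was 0.0404 (0.0241 to 0.0640) and for KCNQ1OT1 0.405 (0.375 to 0.437). The DAC effect was called lower in DAC-resistant than in parental cells for 5 of the 9, MEG3, DLK1, PEG3, PEG10 and KCNQ1OT1, and for 10.8% of all genes. It was called higher for 0 of the 9 and for 4.58% of all genes. The call for DLK1 was lost when any of 5 single libraries was left out, at an unadjusted p of 0.0388 without parental DMSO replicate 1, 0.0369 without parental DMSO replicate 2, 0.0177 without parental DAC replicate 1, 0.0162 without resistant DMSO replicate 2 and 0.0129 without resistant DAC replicate 2. That for PEG3 held only without parental DMSO replicate 2, and its unadjusted p without any other library lay between 0.0222 and 0.0544. H19 was called without parental DAC replicate 1, at 0.00602. These comparisons share libraries, so their calls are not independent of each other.

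The genes beside these 10 were read as a list of 31 cluster neighbours, of which 30 were found and 11 could be tested on the FPKM + 1 scale. With DAC in parental cells, 3 were called higher, CDKN1C, PHLDA2 and NDN, and 1 lower, KCNQ1, where 6.66% of all genes were called higher and 2.64% lower. NDN and MKRN3 passed the filter on low values only through the parental DAC libraries, where they were high. In DAC-resistant cells 0 of the 11 were called with DAC, where 0.235% of all genes were, and 3 had an unadjusted p under 0.05 in limma. The reads fit called 0 of 14 there, where 0.528% of all genes were called, and 5 had an unadjusted p under 0.05. How many of all genes had such a p was not counted in either fit. Between the lines with DAC, 3 of the 11 were called lower and 0 higher, where 9.17% of all genes were lower and 5.29% higher. These 3 were again CDKN1C, PHLDA2 and NDN, in a comparison that shares the parental DAC libraries.

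**Figure D4:**
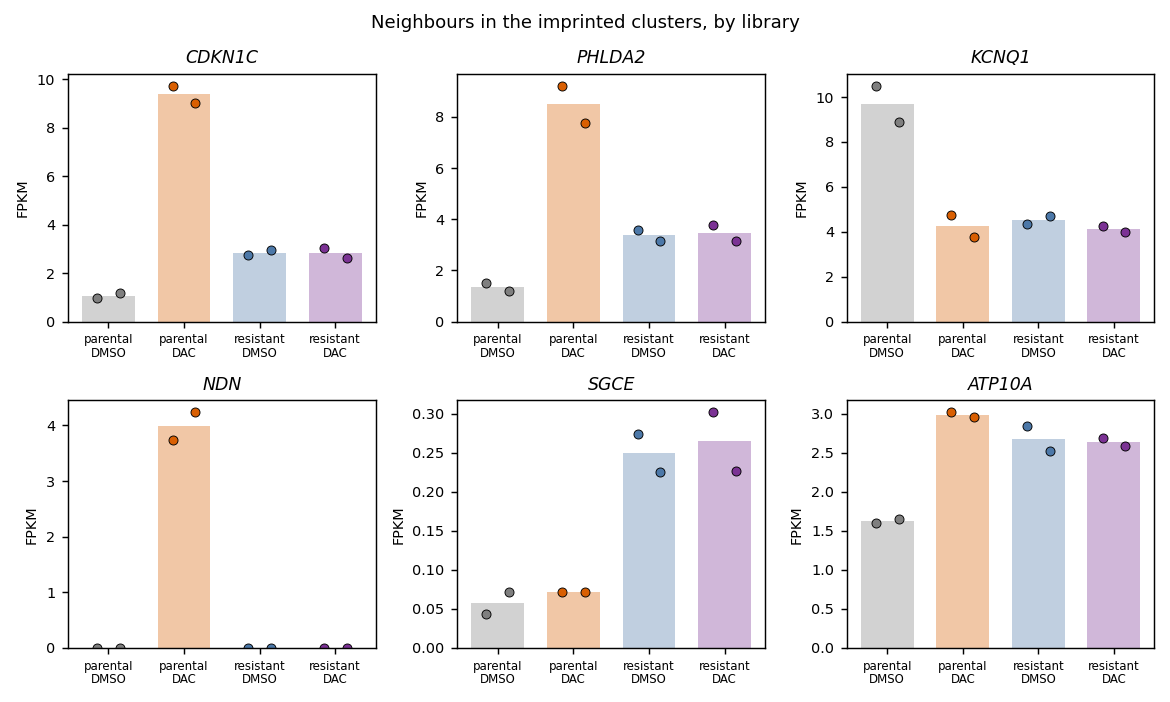
FPKM in each library (points) and group means (bars, from 0) of genes in the clusters of KCNQ1OT1 (CDKN1C, PHLDA2, KCNQ1), SNRPN (NDN, ATP10A) and PEG10 (SGCE). NDN was at 0 outside the parental DAC libraries, and KCNQ1 was highest in the parental DMSO libraries.

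Around KCNQ1OT1 on chromosome 11 the genes moved in both directions. CDKN1C, a cyclin-dependent kinase inhibitor whose annotated start lies 186 kb from that of KCNQ1OT1, was at 0.954 and 1.18 FPKM in DMSO-treated parental cells and 9.74 and 9.04 with DAC. In DAC-resistant cells it was at 2.75 and 2.95 with DMSO and 3.06 and 2.65 with DAC. Its log2 change with DAC in parental cells was 2.33 ± 0.09 (adjusted p = 2.99e-06).
PHLDA2, a regulator of placental growth with its start 229 kb away, was at 1.51 and 1.18 FPKM, then 9.21 and 7.75 with DAC, and at 3.58, 3.15, 3.78 and 3.16 FPKM in the DAC-resistant libraries. Its log2 change with DAC in parental cells was 2.01 ± 0.12 (adjusted p = 2.06e-05). KCNQ1, the potassium channel gene within which KCNQ1OT1 is read, fell from 10.5 and 8.89 FPKM to 4.73 and 3.76 with DAC, and was at 4.34, 4.70, 4.27 and 4.01 in the DAC-resistant libraries. That was a log2 change of -1.03 ± 0.11 in parental cells (adjusted p = 0.000292). Between the lines with DMSO, 0 of the 11 neighbours were called on the FPKM + 1 scale, where 8.73% of all genes were. In the reads fit, CDKN1C, PHLDA2 and KCNQ1 were called there, the first 2 higher in DAC-resistant cells and KCNQ1 lower. Of the 14 neighbours in that fit 4 were called higher, with SGCE and PPP1R9A, and 1 lower, where 7.77% of all genes were higher and 9.89% lower. Both of these comparisons use the parental DMSO libraries. SLC22A18, which lies between CDKN1C and PHLDA2, stayed between 1.74 and 2.85 FPKM, and OSBPL5, beyond PHLDA2, between 7.72 and 11.5 FPKM, with no call for either.

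Around PEG10 on chromosome 7, SGCE (epsilon-sarcoglycan) begins 247 bases from PEG10 and is read in the opposite direction. It had 29 and 45 reads in DMSO-treated parental cells, 41 and 41 with DAC, 180 and 141 in DMSO-treated resistant cells and 201 and 145 with DAC. SGCE was 4.37-fold higher (3.38 to 5.70) in DMSO-treated resistant than in DMSO-treated parental cells, with an adjusted p of 5.76e-05 in the reads fit. In parental cells its ratio with DAC was 1.25 (0.902 to 1.74), beside the 18.8-fold rise of PEG10, and the adjusted p was 0.507. PPP1R9A, a neuronal actin-binding protein 251 kb from PEG10, had 0 and 3 reads in DMSO-treated parental cells and 18 and 20 in DMSO-treated resistant cells, a ratio of 12.8 (4.05 to 64.6) and an adjusted p of 0.00708. With DAC it had 9 and 2 reads in the parental line and 10 and 9 in the resistant line, a ratio of 1.52 (0.687 to 3.53) with an adjusted p of 0.421, and it passed the filter on reads only through the DAC-resistant libraries.

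In the region of SNRPN on chromosome 15, NDN (necdin, a suppressor of cell proliferation) had 0 reads in DMSO-treated parental cells, 196 and 222 with DAC, or 3.74 and 4.24 FPKM, and 0 in all 4 DAC-resistant libraries. It was at least 157-fold higher with DAC in parental cells (adjusted p = 6.62e-06 on the FPKM + 1 scale). ATP10A, a phospholipid flippase, was at 1.6 and 1.66 FPKM in DMSO-treated parental cells, 3.02 and 2.96 with DAC, and 2.52 to 2.84 over the DAC-resistant libraries, with a log2 change of 0.60 ± 0.07 with DAC in parental cells, under the fold of a call. UBE3A, the ubiquitin ligase lost in Angelman syndrome, was between 5.52 and 5.83 FPKM in all groups but DAC-treated resistant cells, where it was 7.20 and 7.27. MKRN3 was at 0.792 and 0.722 FPKM, then 1.31 and 1.21 with DAC, and between 0.536 and 0.841 in the DAC-resistant libraries. The reads fit called it lower in the resistant line with DAC, at a ratio of scaled reads of 0.477 (0.409 to 0.555). There 1 of the 14 neighbours was called higher, SGCE, and 4 lower, where 7.58% of all genes were higher and 18.7% lower. SNHG14, the host of the small nucleolar RNAs of this region, ranged from 0.880 to 1.26 FPKM. COPG2, beside MEST on chromosome 7, was at 6.10 and 6.70 FPKM in DMSO-treated parental cells and 4.60 and 4.65 with DAC, and at 6.02 to 8.11 in the DAC-resistant libraries, with no call.

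Imprinted genes outside these clusters were read as a list of 18, of which 11 were tested on the FPKM + 1 scale. DAC in parental cells raised 3 of them and lowered 0, where 6.66% of all genes were called higher and 2.64% lower. FAM50B, expressed from the paternal copy, rose from 0 reads to 159 and 178, or 2.97 and 3.33 FPKM, and had 0 in the DAC-resistant libraries, at least 127-fold higher with DAC, and it was tested only because of the parental DAC libraries. LPAR6, a lysophosphatidic acid receptor gene inside RB1, rose from 1.75 and 2.18 FPKM to 12.9 and 12.7 with DAC, and was between 3.44 and 4.38 in the DAC-resistant libraries. WT1, a zinc-finger transcription factor often expressed in leukemia, rose from 1.88 and 2.18 FPKM to 6.41 and 6.10, and was between 2.33 and 2.68 in the DAC-resistant libraries. Between the lines with DAC, 4 of the 11 were called lower and 0 higher, where 9.17% of all genes were lower: FAM50B, LPAR6, WT1 and GNAS.
In DMSO-treated resistant cells, 2 of the 11 were called lower and 0 higher, where 4.28% of all genes were called lower. The reads fit called 2 of 16 higher there, DIRAS3 and LPAR6, and 3 lower, NLRP2, GNAS and ZNF331, where 7.77% of all genes were higher and 9.89% lower. GNAS, which encodes the alpha subunit of the stimulatory G protein, was at 31.5 and 31.1 FPKM in parental cells and 13.2 and 13.2 in the resistant line, and DAC left it at 29.5 and 29.6 in parental and 12.8 and 12.3 in DAC-resistant cells. ZNF331 was at 1.36 and 1.10 FPKM in parental cells and 0.0146 and 0.0268 in the resistant line, from 4 and 7 reads, and with DAC at 0.791 and 0.985 against 0.00721 and 0.00752. It reached 1 FPKM only in the parental DMSO libraries, so that it was tested because of the group in which it was high. The reads fit, with 14.2% of all genes called higher, also called 3 genes higher with DAC in parental cells: DIRAS3, a Ras-like growth suppressor, with 0 reads in both DMSO libraries and 40 and 14 with DAC, ZDBF2, with 10 and 25 and then 45 and 41 reads, and NLRP2, with 14 and 7 and then 73 and 80 reads. DIRAS3 was at 16 and 17 reads in DMSO-treated resistant cells and 33 and 27 with DAC, ZDBF2 at 9 and 6 and then 4 and 5, and NLRP2 had 1 read over the 4 DAC-resistant libraries. ZDBF2 and NLRP2 passed the filter on reads only through parental libraries. GRB10, an adaptor of growth factor receptors, was at 8.39 and 8.30 FPKM in DMSO-treated parental cells and 4.67 and 4.74 with DAC. In the DAC-resistant libraries it was between 7.87 and 9.84. Between the lines with DAC the reads fit called it higher, at a ratio of scaled reads of 2.08 (1.99 to 2.18). There 1 of 16 was called higher and 7 lower, where 7.58% of all genes were higher and 18.7% lower. The 7 were NLRP2, FAM50B, ZDBF2, WT1, GNAS, LPAR6 and ZNF331.

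Of 15 genes that write, read or protect imprints, 11 were tested on the FPKM + 1 scale and 0 were called with DAC in either line, with an unadjusted p under 0.05 for 5 of them in each line. Over all genes 9.31% were called in the parental line and 0.235% in the resistant one. These are shares of calls, and the share of all genes with an unadjusted p under 0.05 was not counted. The reads fit called 2 of 14 with DAC in the parental line, ZFP57 and CTCFL, and 0 in the resistant line, against 18.3% and 0.528% of all genes. ZFP57 and CTCFL passed the filter on reads only through the parental DAC libraries, where they were high. DNMT1, which copies methylation at each division, was at 21.9 and 22.2 FPKM in DMSO-treated parental cells, 26.2 and 26.7 with DAC, 23.2 and 23.1 in DMSO-treated resistant cells and 17.5 and 17.4 with DAC. UHRF1, which guides it, ranged from 26.2 to 33.5 FPKM, and TRIM28 from 40.4 to 59.6. ZFP57, the zinc-finger protein that binds methylated imprinting control regions, had 0 reads in DMSO-treated parental cells and 46 and 34 with DAC. It had 0 in all 4 DAC-resistant libraries. The reads fit called it higher with DAC in parental cells, and its scaled reads were at least 30.1-fold higher. CTCFL, a germ-line relative of CTCF, had 2 and 0 reads in DMSO-treated parental cells and 15 and 26 with DAC, and 1, 8, 3 and 0 in the DAC-resistant libraries. TET1, a dioxygenase that oxidizes 5-methylcytosine, was higher in the DAC-resistant line, at 1.54 and 1.77 FPKM with DMSO and 1.73 and 1.75 with DAC, against 0.430 and 0.535, and 0.246 and 0.284, in parental cells. On the FPKM + 1 scale it was called with DAC, at a log2 difference of 1.12 ± 0.10 (adjusted p = 7.03e-05). It was 1 of 11 called higher there, with 0 lower, where 5.29% of all genes were higher and 9.17% lower. The reads fit called it with DMSO too, at 1.78 ± 0.17 (adjusted p = 1.6e-07). It was 1 of 14 called higher there, with 0 lower, where 7.77% of all genes were higher and 9.89% lower. On the FPKM + 1 scale it passed the filter on low values only through the DAC-resistant libraries. TET2 was at 4.15 and 4.39 FPKM in DMSO-treated parental cells and 2.69 and 2.60 in resistant ones. With DAC it was lower in the DAC-resistant line, at 2.9 and 2.85 FPKM against 5.79 and 5.83. The ratio of scaled reads was 0.495 (0.473 to 0.518). The reads fit called it, at a log2 difference of -1.01 ± 0.06. There 1 of 14 was called higher, TET1, and 3 lower, TET2, ZFP57 and CTCFL, where 7.58% of all genes were higher and 18.7% lower.

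IGF2 itself was near 0, but 12 genes of its pathway were read, of which 10 were tested on the FPKM + 1 scale. DAC in parental cells raised 4 of them, all IGF-binding proteins, which sequester IGFs outside the cell, and lowered 0, where 6.66% of all genes were called higher. IGFBP3 rose from 0.442 and 0.498 FPKM to 42.3 and 44, and was between 1.57 and 3.09 in the DAC-resistant libraries. IGFBP5 rose from 0.0195 and 0.0102 to 11.9 and 11.9 FPKM, against at most 0.111 in the DAC-resistant libraries, and it was tested only because of the parental DAC libraries. IGFBP2 rose from 7.54 and 7.10 to 16.3 and 16.3 FPKM and was between 7.42 and 8.97 in the DAC-resistant libraries. IGFBP4 rose from 13.3 and 14.6 to 27.6 and 32.4 FPKM and was between 9.96 and 12 there. The reads fit added IGFBP6, with 0 reads in both parental DMSO libraries, 15 and 21 with DAC, and 1, 0, 1 and 10 in the DAC-resistant libraries, and it too passed the filter only through the parental DAC libraries. The receptor genes were not called with DAC. IGF2R, which clears IGF2, was between 14.5 and 20.3 FPKM, and INSR, the insulin receptor, was at 14.9 and 14.3 FPKM in DMSO-treated parental cells, 8.67 and 8.51 with DAC, 14.8 and 14.1 in DMSO-treated resistant cells and 17.7 and 17.7 with DAC. The reads fit called INSR higher in the resistant line with DAC, at a ratio of scaled reads of 2.06 (1.99 to 2.13). There 3 of 11 were called higher and 4 lower, where 7.58% of all genes were higher and 18.7% lower.
IGF2BP1 and IGF2BP3, RNA-binding proteins of fetal tissue and cancer, were called higher in DMSO-treated resistant than in DMSO-treated parental cells, 2 of the 10, where 4.45% of all genes were. IGF2BP3 was at 0.595 and 0.568 FPKM in DMSO-treated parental cells and 4.52 and 4.62 in resistant ones, and with DAC at 0.409 and 0.448 against 4.76 and 5.05. It passed the filter on low values only through the DAC-resistant libraries. IGF2BP1 was at 1.25 and 0.904 against 3.56 and 3.64, and with DAC at 1.57 and 1.92 against 4.13 and 4.03. The log2 differences of IGF2BP3 and IGF2BP1 with DMSO were 1.82 ± 0.07 (adjusted p = 3.78e-06) and 1.15 ± 0.10 (adjusted p = 0.000129). The gene lists were chosen with earlier results of these data known, so these counts describe the lists.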

How the data were processed

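RNA of THP-1 cells, parental or DAC-resistant, was sequenced in 8 libraries, 2 in each of 4 groups, on an Illumina NovaSeq after preparation with an mRNA kit. Per the labels and the methods of the study, reads were trimmed with cutadapt 1.9.1, aligned to hg38 with HISAT2 2.1.0, handled with SAMtools 1.6 and counted with HTSeq 0.13.5 on Ensembl GRCh38 genes, with FastQC for quality. The strand setting is not given in the sources used here, so reads of overlapping antisense genes cannot be told apart. The authors deposited FPKM values multiplied by 1000 for 60664 genes and 1264 repeat families.

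Values were divided by 1000. The main test was limma 3.58.1 in R 4.3.3 on log2(FPKM + 1), for genes that reached 1 FPKM in 2 or more libraries, as 4 group means in one fit with a variance trend. Calls were made at an unadjusted p no higher than 0.01 with a log2 fold change of 1 or more in either direction. Adjustment followed Benjamini and Hochberg across every gene tested. Exact permutation of 2 against 2 libraries cannot give a p below 0.333, and limma instead borrows its estimate of the spread from all genes.

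Whole reads were recovered from the steps of the FPKM values. Summed over genes, they came to 102.6% to 102.9% of the library totals behind the scaling, and the cause of this excess was not tested. With GENCODE v44 exon lengths, 87.01% of values were whole within 0.01 reads; 34901 genes were solved by length, 4411 by ratios between libraries and 280 approximately. Reads of all 10 imprinted genes were solved. They were fitted with voom, scaled by the authors' totals, which was decided once the values were known, since 6 of the 10 genes fell under the filter. Ratios compare reads scaled by these totals, with exact 95% counting intervals, and bounds and limits rest on 3 reads over a group.

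The members and lists were chosen with earlier results of these data known. All 10 genes are named with every library's value. Genes of the other lists are named where they were called, or were at 1 FPKM or more beside one of the 10, by value or range; DNMT1, UHRF1, TRIM28, IGF2R and ZIM2 were added after their values were seen. Both fits were tested on simulated data. Replicates differed by more than sampling noise in every group. Alternatives were other pseudocounts, filters and scalings, the replicate number as a block, and leaving out each library.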

Additional observations from a re-analysis of the deposited data

Results flagged for a closer look

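In the reads fit, the difference between the DAC effects in DAC-resistant and parental cells was called for 5 of the 9 imprinted genes tested. For all 5 the DAC effect was called lower in DAC-resistant than in parental cells. Over all genes it was called lower for 10.8% and higher for 4.58%. For KCNQ1OT1 the adjusted p was 1.16e-09, with 550 reads over the parental DMSO libraries and 2126 over the DAC libraries, against 1154 and 980 in DAC-resistant cells. For MEG3 it was 0.000125, with 1 and 413 reads against 14 and 19. For PEG10 it was 0.000159, with 6 and 100 reads against 844 and 646. For DLK1 it was 0.0201, with 0 and 27 reads against 22 and 51, and for PEG3 it was 0.0269, with 6 and 124 reads against 0 and 0. The last 2 calls were lost when single libraries were left out, and PEG3 passed the filter on reads only through the parental DAC libraries. KCNQ1OT1 and PEG10 were lower with DAC in both replicates of the DAC-resistant line and higher in both of the parental line.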

How the results depend on the processing

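Results were recomputed under each alternative, and those for the reads fit were chosen after seeing the data. On the FPKM + 1 scale, the counts of imprinted genes called moved through PEG10 alone. With DAC in parental cells the count was 1 in place of 0 with a pseudocount of 0.1 and with voom on reads. Of all 14899 genes these called 2097 and 2220 in place of 1387. For DAC-resistant against parental cells with DMSO the count was 0 in place of 1 with a mean of at least 5 FPKM, which PEG10 does not reach. That filter left 7239 genes, of which 517 were called, in place of 1300 of 14899. With DAC in both lines the count was 1 in place of 0 with a pseudocount of 0.1, TPM, quantile normalization and voom. Over all genes these called 3249, 3121, 2180 and 3361 in place of 2154. When single libraries were left out the count ranged from 0 to 1. It was 1 without parental DAC replicate 2 or DAC-resistant DAC replicate 2, with 2169 and 2138 genes called. For the difference between the DAC effects the count was 1 in place of 0 with a pseudocount of 0.1, TPM and voom. Over all genes these called 2209, 2093 and 2278 in place of 1583. In the reads fit that difference gave 3 in place of 5 with quantile normalization, which lost DLK1 and PEG3. Over all genes 3368 were called there in place of 3282. The count ranged from 3 to 4 when single libraries were left out, with 2789 to 3088 genes called. It was 3 without parental DMSO replicate 1, DAC-resistant DMSO replicate 2 or DAC-resistant DAC replicate 2. With an adjusted p under 0.05 it was 6, through H19 (0.0314 in the reads fit), and 3782 genes were called. The unadjusted p of PEG3 for the difference was 0.00987, and without genes of approximate reads it was 0.01. The unadjusted p of H19, 0.0119, became 0.00237 with at least 30 reads in 2 libraries. MEG3 between the lines with DMSO was called with at least 30 reads (0.00813 by limma) and without DAC-resistant DMSO replicate 1 (0.00639). It was also called with an adjusted p under 0.05 (0.0401 in the reads fit). The count there was 4 in place of 3, and over all genes 4353 in place of 3777.

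PEG10 with DAC in parental cells was -0.012 with quantile normalization. The SNRPN difference was 0.004 with TPM, 0.041 with quantile normalization, 0.050 with upper-quartile scaling, and from -0.134 to 0.031 when single libraries were left out (0.020, 0.017 and 0.031 without parental DAC replicate 2, DAC-resistant DMSO replicate 1 and DAC-resistant DAC replicate 2). PLAGL1 between the lines with DAC ranged from -0.046 to 0.066 and was below 0 without parental DAC replicate 1 (-0.031) or DAC-resistant DAC replicate 1. MEST with DAC in DAC-resistant cells ranged from -0.008, without DAC-resistant DMSO replicate 2, to 0.058, and MEG3 there from -0.128, without DAC-resistant DMSO replicate 1, to 1.165. The cause was not tested. Over all genes the median log2 change of the reads fit was 0.13 with DAC in parental cells and -0.17 between the lines with DAC, against -0.11 and 0.11 with quantile normalization, and all calls of these genes there kept their direction.

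Same-numbered replicates did not deviate together (correlations from -0.0218 to 0.0198). This alone cannot settle whether the libraries were paired. With the replicate number as a block, 1388 genes in place of 1387 were called with DAC in parental cells on the FPKM + 1 scale and 3788 in place of 3919 in the reads fit. In the same fit the difference was called for H19 and lost for PEG3, with unadjusted values of 0.00415 and 0.0124. Depth limits H19, MEG3, DLK1, PEG3 and IGF2.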
